A study of Mus musculus with 54 samples.

Results

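The genes described are 6 matrix metalloproteinases, Mmp2, Mmp3, Mmp7, Mmp9, Mmp12 and Mmp14, and 3 tissue inhibitors of metalloproteinases, Timp1, Timp2 and Timp3. They were taken by gene symbol and are 9 of the 55471 genes in the count tables of liver, kidney and quadriceps. The RNA came from whole tissue of female and male C57BL/6J mice, an inbred strain, with no transgene named in the labels. Corylin mice were 130 weeks of age and received corylin, a flavonoid found in Psoralea corylifolia, in the diet. Old mice were also 130 weeks of age and received the control diet, and young mice were 50 weeks of age. Each sex and condition had 3 samples per tissue, apart from the livers of corylin males, of which 2 were analysed here (replicates 2 and 3). Samples are called by condition, sex and replicate number (old female 3), and apart from its tissue suffix each of 17 among 18 library names occurs in all 3 tissues.

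Matrix metalloproteinases are zinc proteases that are made as inactive proforms and, once active, cut collagens, elastin, laminins and other proteins outside the cell. Mmp2 and Mmp9 are gelatinases, Mmp3 is a stromelysin, Mmp7 is matrilysin, Mmp12 is the elastase of macrophages, and Mmp14 sits in the cell membrane, where it cuts the proform of Mmp2 with Timp2 as a bridge. Timps bind the active site of these proteases and block it, and Timp3 stays attached to the matrix. In kidney, liver and muscle the family is known for remodelling the matrix during injury, repair and fibrosis.

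Levels are given in CPM, a gene's share of its library's counts times 1e+06, with library sizes scaled by TMM, and changes are log2 fold changes ± SE. A gene was called where its adjusted p from edgeR's quasi-likelihood test, adjusted by the Benjamini-Hochberg method over all genes of the tissue, was under 0.05. Means are given ± SD. The corylin and the age comparison of one sex share the old mice, so their values stand side by side and are not independent. These are bulk tissues, in which fewer cells of a type and less RNA per cell cannot be told apart.

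In GRCm38 (GENCODE M21 annotation), Mmp12 (ENSMUSG00000049723), Mmp3 (ENSMUSG00000043613) and Mmp7 (ENSMUSG00000018623) lie on the + strand of chromosome 9, at chr9:7344381-7369499, chr9:7445822-7455975 and chr9:7692090-7699585, within a cluster of 10 Mmp genes spanning 427 kb. The other 6 genes are dispersed. Mmp9 (ENSMUSG00000017737) lies at chr2:164940780-164955850, Mmp2 (ENSMUSG00000031740) at chr8:92827291-92853420 and Mmp14 (ENSMUSG00000000957) at chr14:54431612-54445364. The inhibitors lie at chrX:20870166-20874735 for Timp1 (ENSMUSG00000001131), chr11:118301069-118355740 for Timp2 (ENSMUSG00000017466) and chr10:86300372-86349506 for Timp3 (ENSMUSG00000020044). Timp1 and Timp3 overlap the synapsin genes Syn1 and Syn3 on the opposite strand, and the strand setting of the counting is not given in the sources used here. Syn1 had up to 78 counts in a liver library, where Timp1 itself had few, so liver Timp1 counts carry that uncertainty. The genes overlapping Mmp12 and Mmp7, Mmp1b and AV064505, had at most 1 count in any library.

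RefSeq (GRCm38.p6) gives promoter windows for 7 of the 9 genes, none of them for Mmp2 or Mmp9 and a pair each for Mmp12 and Mmp7, and the 250 bases before the start were searched on both strands for 2 motifs, whose matches in the windows shown do not overlap. These were TGANTCA, bound by AP-1, found in 6.75% of 32851 windows, and TATAAA, the TATA box, in 12.4%. The windows below are shown because they belong to the 3 genes of the chromosome 9 cluster and are the windows of the set with a match. Capitals mark the AP-1 match TGAGTCA and the TATAAA matches. The Mmp12 window is that of a start inside the gene, at chr9:7347374. The AP-1 match lies at -44 to -38 there, at -46 to -40 for Mmp3 and at -63 to -57 for Mmp7. TATAAA lies at -7 to -2 for Mmp3, and at -26 to -21 and -123 to -118 for Mmp7. Windows are chr9:7347124-7347373, chr9:7445572-7445821 and chr9:7691840-7692089, all on the + strand.
Mmp12: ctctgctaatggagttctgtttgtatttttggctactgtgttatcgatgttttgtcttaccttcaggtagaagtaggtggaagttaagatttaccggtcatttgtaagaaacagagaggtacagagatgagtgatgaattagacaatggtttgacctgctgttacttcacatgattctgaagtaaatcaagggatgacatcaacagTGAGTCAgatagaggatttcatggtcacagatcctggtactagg
Mmp3: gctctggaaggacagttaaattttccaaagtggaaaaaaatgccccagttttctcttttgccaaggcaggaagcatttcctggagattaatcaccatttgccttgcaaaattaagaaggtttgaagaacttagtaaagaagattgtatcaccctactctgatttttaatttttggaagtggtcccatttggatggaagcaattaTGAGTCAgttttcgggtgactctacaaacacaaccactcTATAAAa
Mmp7: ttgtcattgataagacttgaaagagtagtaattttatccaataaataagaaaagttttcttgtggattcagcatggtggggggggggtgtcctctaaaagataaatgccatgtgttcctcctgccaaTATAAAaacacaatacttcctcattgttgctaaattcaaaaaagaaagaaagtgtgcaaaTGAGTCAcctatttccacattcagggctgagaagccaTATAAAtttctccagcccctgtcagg
No match of either motif was found in the other Mmp12 window, before the start at chr9:7344397, in the other Mmp7 window, before chr9:7692341, or in the windows of Mmp14, Timp1, Timp2 and Timp3, which says only that those letters are not in those windows. A match is a description of sequence and was not tested against the expression values.

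Libraries held 9.03 to 16.61 times 1e+06 counts in liver, 8.69 to 23.19 times in kidney and 13.25 to 19.7 times in quadriceps. The tissues carried their markers: summed hepatocyte markers were 54699 to 108511 CPM in liver, tubule markers 10954 to 15368 CPM in kidney and fibre markers 83338 to 168730 CPM in quadriceps. A filter on low counts left 8 of the 9 genes tested in liver, 9 in kidney and 7 in quadriceps. Liver Mmp3 had 0 to 7 counts per library, quadriceps Mmp12 0 to 30 counts, and quadriceps Mmp7 had 0 counts in all 18 libraries. A pair of libraries stood apart in macrophage and neutrophil markers. In quadriceps of old female 3, summed macrophage markers were 1107 CPM, against 108 and 134 CPM in the other old females, and neutrophil markers 158 CPM, against 3.76 and 6.32 CPM. In liver of corylin male 3, macrophage markers were 3423 CPM, against 276 CPM in corylin male 2, and neutrophil markers 189 CPM, against 7.23 CPM. Both carry the letter R in their names, whose meaning is not given, as do 12 of the 53 libraries, all of them from aged mice. In adipocyte markers, kidney of old female 2 (507 CPM) and quadriceps of young female 2 (1266 CPM) exceeded the rest of their groups, as described below.

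The order of these proteases and inhibitors by RNA level differed between tissues in young mice. On the scale of TPM, which is per length and allows levels of different genes to be compared, Timp3 was the highest gene in kidney at 574.9 ± 63.3 TPM (n = 6, both sexes), followed without overlap by Timp2 at 49.3 ± 16.3 TPM and Mmp14 at 8.20 ± 2.90 TPM. Below these, Mmp2, Timp1, Mmp3, Mmp9, Mmp12 and Mmp7 lay between 2.60 and 0.354 TPM on average, each overlapping its neighbour in the order. In kidney the inhibitors Timp3 and Timp2 therefore stood first and second, and no protease reached them. The inhibitor Timp1, at 1.67 TPM, lay below Mmp14 and overlapped Mmp2.

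In young liver, by contrast, a protease came first: Mmp14 averaged 29.0 ± 3.56 TPM (n = 6), above Timp3 at 10.1 ± 2.15 TPM and Timp2 at 8.16 ± 2.63 TPM, which overlapped each other. Mmp2 at 1.44 TPM, Mmp7 at 0.939 TPM and Mmp9 at 0.454 TPM followed, and Timp1, Mmp12 and Mmp3 lay at or below 0.250 TPM. In young quadriceps, Timp3 at 61.7 ± 12.2 TPM and Timp2 at 58.5 ± 14.9 TPM overlapped, and Mmp2 at 19.3 ± 5.49 TPM and Mmp14 at 5.81 ± 1.51 TPM each stood clear of the gene below. The remaining 5 genes averaged 0.871 TPM or less.

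Set by gene, the tissue with the highest young mean exceeded the next tissue 9.31-fold for Timp3 (kidney), 7.43-fold for Mmp2 (quadriceps), 6.71-fold for Timp1 (kidney) and 3.54-fold for Mmp14 (liver). For Timp2 and Mmp3 the leading tissue, quadriceps, exceeded kidney only 1.19-fold and 1.04-fold, within the spread. These levels come from tissues normalized separately and were not tested.

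**Figure D1:**
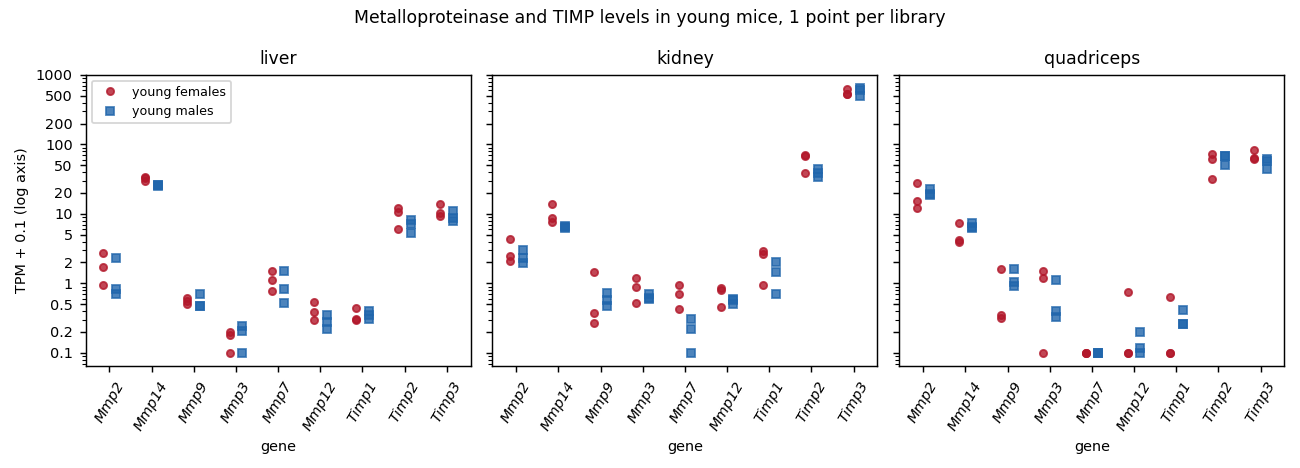
Deposited TPM + 0.1 on a log axis for the 9 genes in the young libraries of each tissue; circles are young females and squares young males. Timp3 reaches 574.9 TPM on average in kidney, Mmp14 leads in liver at 29.0 TPM, and quadriceps Mmp7 is at 0 in every library.

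Kidney ageing in females moved more of these genes than any other comparison within a sex. Old females had 6 of the 9 genes called higher than young females and none lower, where 10.8% of all genes were called and 7.69% were called higher. The 6 were Mmp7, Mmp3, Timp1, Mmp2, Mmp12 and Mmp14, and the median log2 fold change over the 9 genes was 1.87, against 0.00065 over all genes. In corylin females against old females 1 of the 9 genes, Mmp3, was called lower and none higher, where 0.0582% of all genes were called and 0.0408% were called lower. The median log2 difference over the 9 genes was -1.18 there, against -0.01 over all genes. Groups did not overlap for 5 genes in each comparison, the same 5: Mmp2, Mmp3, Mmp7, Mmp14 and Timp1. That compares with 13% of all genes without overlap and higher in old than in young females, and 6.41% without overlap and lower in corylin than in old females.

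Mmp3, which cuts proteoglycans, fibronectin and other metalloproteinase proforms, had 2.09, 2.19 and 1.48 CPM in corylin females, 5.25, 5.93 and 4.49 CPM in old females, and 0.516, 0.699 and 0.289 CPM in young females. The 3 groups were apart, with corylin females between old and young females. Mmp3 rose in old females relative to young females (log2 fold change 3.36 ± 0.29, edgeR adjusted p = 3.18e-05) and fell in corylin females relative to old females (-1.45 ± 0.25, adjusted p = 0.0452). The call for corylin was lost in 5 of 6 fits that left out a library, kept only without old female 3, with log2 fold changes of -1.54 to -1.29 and adjusted p of 0.0222 to 0.316.

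Mmp7, a protease made by epithelia, had 2.73, 1.90 and 4.43 CPM in corylin females, 7.10, 5.99 and 8.11 CPM in old females, and 0.129, 0.233 and 0.346 CPM in young females. Every old library exceeded every corylin library, and every corylin library exceeded every young library. Its rise in old relative to young females was 4.84 ± 0.57 (adjusted p = 0.000144), and the corylin difference was -1.21 ± 0.43 (adjusted p = 0.274). Mmp7 was near the limit of detection in young females, with 12 counts over 3 libraries.

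Among libraries with the letter B alone, 2 each in the corylin and old groups and 3 in the young group, the same 6 genes were called higher in old than in young females, with Mmp3 at 3.46 ± 0.31 (adjusted p = 0.000332) and Mmp7 at 4.73 ± 0.62 (adjusted p = 0.00126). In those libraries Mmp3 differed between corylin and old females by -1.38 ± 0.32 and was not called (adjusted p = 0.212).

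Mmp12, the macrophage elastase, had 2.32, 2.29 and 2.57 CPM in corylin females, 8.72, 4.62 and 1.76 CPM in old females, and 1.87, 1.98 and 0.982 CPM in young females. Old female 3 lay inside the young range, and old females 1 and 2 above all corylin and young females. Mmp12 was called higher in old than in young females (1.64 ± 0.44, adjusted p = 0.0230), a call lost in 3 of 6 fits without a library (old female 1, young female 2 or young female 3, adjusted p up to 0.160), and its corylin difference was -1.06 ± 0.43 (adjusted p = 0.339).

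The gelatinase Mmp2 and its membrane activator Mmp14 were both called higher in old than in young females. Mmp2 had 6.50, 3.24 and 3.40 CPM in corylin females, 16.5, 8.44 and 15.4 CPM in old females, and 5.29, 2.86 and 2.54 CPM in young females. Corylin and young females overlapped, and both lay below all old females. Mmp2 rose in old relative to young females (1.92 ± 0.41, adjusted p = 0.00579), and its corylin difference was -1.60 ± 0.41 (adjusted p = 0.140).

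Mmp14 had 30.8, 16.2 and 22.6 CPM in corylin females, 53.7, 34.3 and 50.2 CPM in old females, and 30.1, 18.5 and 17.4 CPM in young females. Old females again stood above both other groups, which overlapped. Its rise in old relative to young females was 1.07 ± 0.24 (adjusted p = 0.00896, lost without young female 2 or young female 3, with adjusted p up to 0.0582), and the corylin difference was -0.98 ± 0.24 (adjusted p = 0.140). Mmp9, the second gelatinase, was led by replicate 1 in each group, at 2.26, 0.667 and 0.642 CPM in corylin females, 5.60, 1.88 and 0.928 CPM in old females, and 1.74, 0.350 and 0.231 CPM in young females. Its groups overlapped, and neither its age difference of 1.87 ± 0.72 (adjusted p = 0.115) nor its corylin difference of -1.18 ± 0.69 (adjusted p = 0.499) was called.

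Of the 3 inhibitors, Timp1 was called and Timp2 and Timp3 were not. Timp1, the inducible inhibitor, had 3.66, 2.48 and 1.35 CPM in corylin females, 11.4, 5.19 and 4.93 CPM in old females, and 0.903, 0.816 and 0.289 CPM in young females, with no overlap among the 3 groups. It rose in old relative to young females (3.41 ± 0.61, adjusted p = 0.00170), and its corylin difference was -1.51 ± 0.54 (adjusted p = 0.267). Timp2 had 90.8, 110.5 and 101 CPM in corylin females, 107, 88.4 and 176 CPM in old females, and 98.2, 98.5 and 58.5 CPM in young females, and its age difference of 0.54 ± 0.24 did not pass (adjusted p = 0.181).

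Timp3, by far the most abundant of the set in kidney, had 1657, 1763 and 1597 CPM in corylin females, 1666, 1573 and 1779 CPM in old females, and 1588, 1844 and 1681 CPM in young females. The 3 groups overlapped. Its age difference was -0.03 ± 0.14 (adjusted p = 0.927), and its corylin difference -0.001 ± 0.14 (adjusted p = 0.999).

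**Figure D2:**
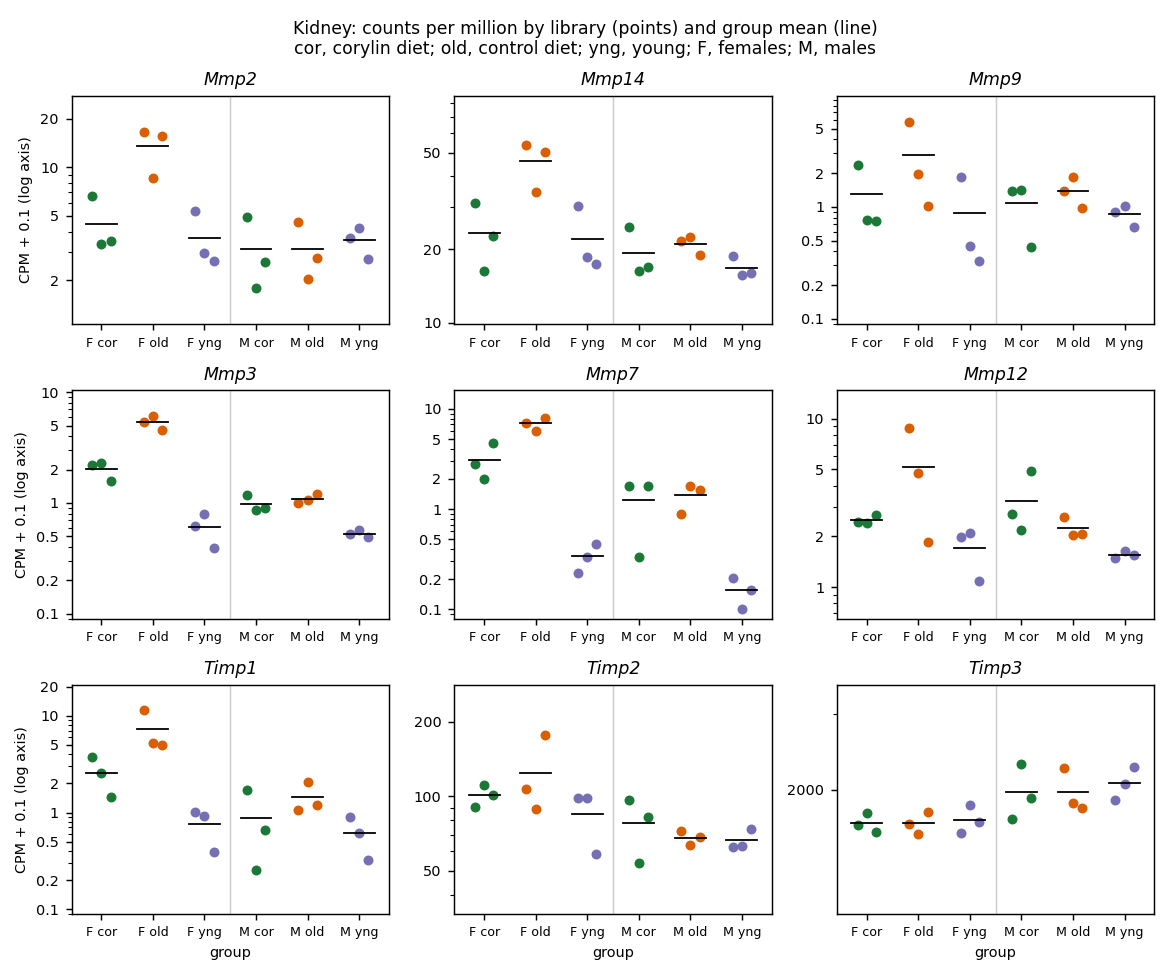
Kidney CPM + 0.1 on a log axis for each of the 9 genes, by library (points) and group mean (lines), with corylin (cor), old and young (yng) females (F) and males (M) from left to right. Old females stand above young females without overlap for Mmp2, Mmp3, Mmp7, Mmp14 and Timp1, and Timp3 lies between 1573 and 1844 CPM in all females.

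In kidneys of males 1 of the 9 genes, Mmp7, was called higher in old than in young mice and none lower, where 0.111% of all genes were called and 0.0815% were called higher. Mmp7 had 0.784, 1.60 and 1.45 CPM in old males and 0.106, 0 and 0.0558 CPM in young males, which is 64 counts in old males against 3 counts in young males, a ratio of 24.5 with a 95% counting interval of 8.02 to 122. Old and young males were apart, and the fitted difference was 4.43 ± 0.77 (adjusted p = 0.0422), lost in 5 of 6 fits without a library, all but that without old male 1, with adjusted p up to 0.241, and in the B libraries alone (4.34 ± 0.85, adjusted p = 0.264). Mmp3, Timp1, Mmp14 and Mmp12 also had old and young males apart, so that 5 of 9 genes were higher without overlap, against 9.96% of all genes.

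Mmp3 had 0.896, 0.962 and 1.10 CPM in old males and 0.425, 0.464 and 0.390 CPM in young males. All old males exceeded all young males, by 1.19 ± 0.31 (adjusted p = 0.137). Mmp2 had 4.48, 1.92 and 2.66 CPM in old males and 3.56, 4.13 and 2.62 CPM in young males, with overlap and a difference of -0.18 ± 0.42 (adjusted p = 0.913). Timp1 differed by 1.37 ± 0.65 (adjusted p = 0.456) and Mmp14 by 0.32 ± 0.25 (adjusted p = 0.685).

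The test of the difference itself, the age effect of females minus that of males, called none of the 9 genes at the adjusted threshold, where 0.0932% of all genes were called. The 4 genes Mmp3, Mmp2, Timp1 and Mmp14 had an unadjusted p under 0.05, and DESeq2 called 2 of the 9 and 345 of all genes. Mmp3 came nearest, with an age effect larger in females by 2.17 ± 0.43 (adjusted p = 0.0563), and Mmp2 followed with 2.102 ± 0.58 (adjusted p = 0.140). For Mmp7 the difference was 0.41 (adjusted p = 0.934). With 3 Mmp7 counts over all young males, this does not say whether the sexes differed or were alike. Averaged over the sexes, 5 genes rose with age, where 8.86% of all genes were called and 6.64% were called higher: Mmp7 by 4.64 ± 0.47 (adjusted p = 3.77e-05), Timp1 by 2.39 ± 0.44 (adjusted p = 0.00231), Mmp3 by 2.28 ± 0.21 (adjusted p = 2.61e-05), Mmp12 by 1.10 ± 0.31 (adjusted p = 0.0370, called in 2 of 12 fits without a library) and Mmp14 by 0.70 ± 0.17 (adjusted p = 0.0164).

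In kidneys of corylin males against old males no member was called by edgeR or DESeq2, and none had an unadjusted p under 0.05, where 0.0699% of all genes were called, and no gene had its groups apart. Mmp3 had 1.07, 0.771 and 0.793 CPM in corylin males, against 0.896, 0.962 and 1.10 CPM in old males (-0.14 ± 0.30, adjusted p = 0.973). Mmp7 had 1.60, 0.231 and 1.59 CPM in corylin males, against 0.784, 1.60 and 1.45 CPM in old males (-0.16 ± 0.51, adjusted p = 0.975). Averaged over the sexes no gene was called (0.0641% of all genes, 4 of the 9 with unadjusted p under 0.05, none by DESeq2). The corylin effect of females minus that of males was -1.31 ± 0.39 for Mmp3 (adjusted p = 0.374) and -1.62 ± 0.59 for Mmp2 (adjusted p = 0.427), with none of the 9 called by edgeR or DESeq2, 4 at an unadjusted p under 0.05, and 0.00582% of all genes called.

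Matrix proteins, some of them substrates of these proteases, were tested in the same kidneys. Of 28 tested collagens and other matrix proteins, 17 were called higher in old than in young females and none lower, with a median log2 fold change of 1.32. Among them were Col5a2, a fibrillar collagen chain (3.13 ± 0.41, adjusted p = 0.000292), Postn, a matrix protein of fibroblasts (2.45 ± 0.46, adjusted p = 0.00261), Sparc, which binds collagen (1.298 ± 0.20, adjusted p = 0.000650), and Eln, the elastin gene (1.29 ± 0.17, adjusted p = 0.000212). Without old female 2 the count was 23, and without old female 3 it was 14. Over all genes, the fits that left out 1 library called 1034 to 2260 genes in this comparison, against 1863 with all libraries. In males the same list had 0 called genes by edgeR or DESeq2, with 1 at an unadjusted p under 0.05 and a median of -0.01.

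Of 17 tested cytokines and transcription factors known to induce metalloproteinase genes, 11 rose in old females, with a median of 1.16. Lif rose by 5.05 ± 0.68 (adjusted p = 0.000301), Il1b by 3.93 ± 0.49 (adjusted p = 0.000201), Nfkb2, an NF-kB subunit, by 0.90 ± 0.18 (adjusted p = 0.00444), and Jun, an AP-1 subunit, by 0.83 ± 0.17 (adjusted p = 0.00528). Of 10 tested other metalloproteinase family genes 3 rose: Mmp19 by 2.45 ± 0.44 (adjusted p = 0.00184), Mmp25, a membrane-anchored protease of leukocytes, by 2.29 ± 0.55 (adjusted p = 0.0123) and Mmp23 by 1.17 ± 0.24 (adjusted p = 0.00424). Of 15 ADAM and ADAMTS proteases 5 rose, among them Adam8 by 2.33 (adjusted p = 0.00448) and Adamts2, which trims procollagen, by 1.82 (adjusted p = 0.00377). Among the plasminogen system genes Serpine2, an inhibitor of plasminogen activators, rose by 1.44 ± 0.21 (adjusted p = 0.000465).

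Corylin against old females had 0 genes called by edgeR in each of these lists, and DESeq2 called 226 of all genes in that comparison. The medians against old females were -0.85 for the matrix proteins (17 of 28 at an unadjusted p under 0.05, 3 called by DESeq2), -0.58 for the inducers (5 of 17, and 2 by DESeq2) and -0.46 for the other metalloproteinase genes (3 of 10, and 1 by DESeq2), against -0.01 over all genes. Eln was the nearest to a call (-0.88 ± 0.16, adjusted p = 0.0522), and Il1b differed by -1.88 ± 0.43 (adjusted p = 0.106).

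Markers of other cells moved with these genes in the kidney. Summed macrophage markers were 376 to 582 CPM in corylin females, 859 to 1171 CPM in old females and 183 to 295 CPM in young females, and 11 of 12 rose in old relative to young females. Markers of injured tubule, such as Havcr1, rose for 7 of 9 genes, with sums of 2401 to 6675 CPM in corylin females, 3685 to 10085 CPM in old females and 1555 to 1826 CPM in young females. These sums were mostly Spp1, which is also on the matrix list. It reached 161722 counts in a kidney library, against at most 7290 for Lcn2 and 447 for Havcr1. Fibroblast markers summed to 153 to 293 CPM, 205 to 439 CPM and 116 to 230 CPM in the same 3 groups. With age 5 of 9 rose, among them Lum and Col1a1, which are also on the matrix list. Neutrophil markers summed to 4.38 to 6.23 CPM in corylin females, 10.3 to 18.7 CPM in old females and 1.73 to 2.71 CPM in young females, and the granule genes Ngp, Elane, Mpo and Camp reached at most 13, 7, 4 and 2 counts in a kidney library. In males, macrophage markers summed to 306 to 415 CPM in old and 150 to 206 CPM in young kidneys. The part of any of these cells in the levels of the 9 genes was not tested.

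In liver, ageing in females raised 3 of the 8 tested genes, the proteases Mmp12 and Mmp9 and the inhibitor Timp1, and lowered none, where 9.27% of all genes were called and 5.54% were called higher. In males none of the 8 was called, where edgeR called 0.211% of all genes, although 4 had an unadjusted p under 0.05. DESeq2 called 2 of the 8 in males, and 948 of all genes. In each sex 5 genes were higher in old than in young livers without overlap, Mmp7, Mmp9, Mmp12, Mmp14 and Timp1, against 18.5% of all genes in females and 15.2% in males. Averaged over the sexes these same 5 genes were called higher, though Mmp7 in only 2 of 12 fits without a library, where 19.1% of all genes were called and 10.9% were called higher. Among B libraries alone the 3 genes called in females were called as well, and in males Mmp12 (1.65 ± 0.41, adjusted p = 0.0366) and Mmp14 (0.60 ± 0.13, adjusted p = 0.0202) were called. Over all genes, the alternative fits called 793 to 3402 genes in females, against 1405, and 39 to 1282 in males, against 32.

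Mmp12 had 5.44, 4.05 and 5.69 CPM in corylin females, 6.66, 5.29 and 7.34 CPM in old females, and 1.24, 0.605 and 0.882 CPM in young females. Old and corylin females overlapped each other and lay above all young females. The rise with age was 2.81 ± 0.35 (adjusted p = 0.00290) and was kept in all 6 fits without a library, and the corylin difference was -0.35 ± 0.31 (adjusted p = 0.643). In males Mmp12 had 2.91 and 1.37 CPM in corylin livers, 2.18, 1.48 and 2.12 CPM in old livers, and 0.383, 0.818 and 0.580 CPM in young livers, with an age difference of 1.70 ± 0.39 (adjusted p = 0.0790). The age effect in females minus that in males was 1.10 ± 0.53 (adjusted p = 0.595).

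Mmp9 had 2.02, 3.28 and 3.91 CPM in corylin females, 2.79, 7.32 and 7.11 CPM in old females, and 0.731, 0.605 and 0.693 CPM in young females. Young females formed a narrow group below all aged females, and corylin and old females overlapped. The rise with age was 3.06 ± 0.77 (adjusted p = 0.0291), lost without old female 2 or any 1 of the young females, with adjusted p up to 0.102. In males it had 0.638 and 12.9 CPM in corylin livers, 2.62, 1.33 and 2.93 CPM in old livers, and 0.574, 0.935 and 0.580 CPM in young livers, and the age difference was 1.73 ± 0.81 (adjusted p = 0.256). The 2 corylin males lay on either side of all old males.

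Timp1 was near the limit of detection in liver, with 16, 6 and 7 counts in old females and 1, 1 and 2 counts in young females. The groups were apart, and the difference of 2.81 ± 0.72 was called (adjusted p = 0.0297, lost without old female 2 or any 1 of the young females, with adjusted p up to 0.101, and not tested without old female 1, where it missed the filter). In males the sums were 13 counts in old and 3 counts in young livers, a ratio of 3.06 with a 95% counting interval of 0.842 to 16.8. Mmp7 had 0.634, 2.47 and 2.03 CPM in old females against 0.439, 0.303 and 0.630 CPM in young females, with the lowest old library just above the highest young one (1.85 ± 0.90, adjusted p = 0.191).

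Mmp14, the highest of the 9 genes in young liver, had 84.8, 65.5 and 58.8 CPM in corylin females, 92.6, 104 and 86.9 CPM in old females, and 79.5, 76.0 and 82.6 CPM in young females. In males it had 60.1 and 71.6 CPM in corylin livers, 93.2, 112 and 80.8 CPM in old livers, and 67.6, 69.4 and 67.5 CPM in young livers. In both sexes every old liver lay above every young and every corylin liver. The age difference was 0.25 ± 0.15 in females (adjusted p = 0.273) and 0.48 ± 0.15 in males (adjusted p = 0.117), and averaged over the sexes Mmp14 rose by 0.37 ± 0.10 (adjusted p = 0.0252, and 0.0606 without young female 2).

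For corylin against old, none of the 8 liver genes was called in females (0.152% of all genes called, 1 of the 8 with unadjusted p under 0.05), in males (0.0594%, and 3 of 8) or averaged over the sexes (1.07%, and 2 of 8). DESeq2 called none in either sex. On average it called 1, Mmp14, and 760 of all genes. Mmp14 differed between corylin and old livers by -0.44 ± 0.15 in females (adjusted p = 0.165) and -0.53 ± 0.17 in males (adjusted p = 0.313), and its average difference of -0.49 ± 0.11 did not pass (adjusted p = 0.0510), whereas the B libraries alone, with 1 corylin male, gave -0.58 ± 0.12 (adjusted p = 0.0191), a fit that takes the lone library to vary like the other groups. It was the only gene lower without overlap in each sex, against 8.33% of all genes in females and 9.67% in males. In males Mmp2 alone was higher without overlap, against 10% of all genes, at 3.05 and 6.73 CPM in corylin livers against 2.87, 2.11 and 2.85 CPM in old livers (0.91 ± 0.74, adjusted p = 0.673). The 6.73 CPM came from corylin male 3, the library with high macrophage and neutrophil markers, and corylin male 2 lay just above the old males.

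The 2 corylin males of the liver differed from each other. Mmp7 had 0.992 and 13.7 CPM in corylin males 2 and 3, against 2.80, 1.12 and 1.98 CPM in old males, and Timp2 had 17.1 and 68.2 CPM, against 18.9, 13.2 and 21.9 CPM. Corylin male 3 was the highest liver library for Mmp2, Mmp7, Mmp9 and Timp2, and corylin male 2 lay below the old males for Mmp7 and Mmp9. The fitted differences were 1.90 ± 0.83 for Mmp7 (adjusted p = 0.441), 1.56 ± 0.74 for Mmp9 (adjusted p = 0.479) and 1.25 ± 0.46 for Timp2 (adjusted p = 0.380). In fits with 1 corylin male left, which take it to vary like the other groups, the values depended on which. Without corylin male 2 the differences were 2.70 for Mmp7, 2.40 for Mmp9 and 1.84 for Timp2. Without corylin male 3 they were -0.996 for Mmp7, -1.84 for Mmp9 and -0.08 for Timp2, so the direction of these 3 genes turned with that library, the one with the high macrophage and neutrophil markers, whose part was not tested. The corylin effect of females minus that of males called none of the 8 genes in edgeR or DESeq2, with 0% of all genes called and 2 of the 8, Mmp7 and Mmp9, at an unadjusted p under 0.05. Likewise the age effect of females minus that of males called none in either tool, with 0% of all genes called and none of the 8 at an unadjusted p under 0.05.

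**Figure D3:**
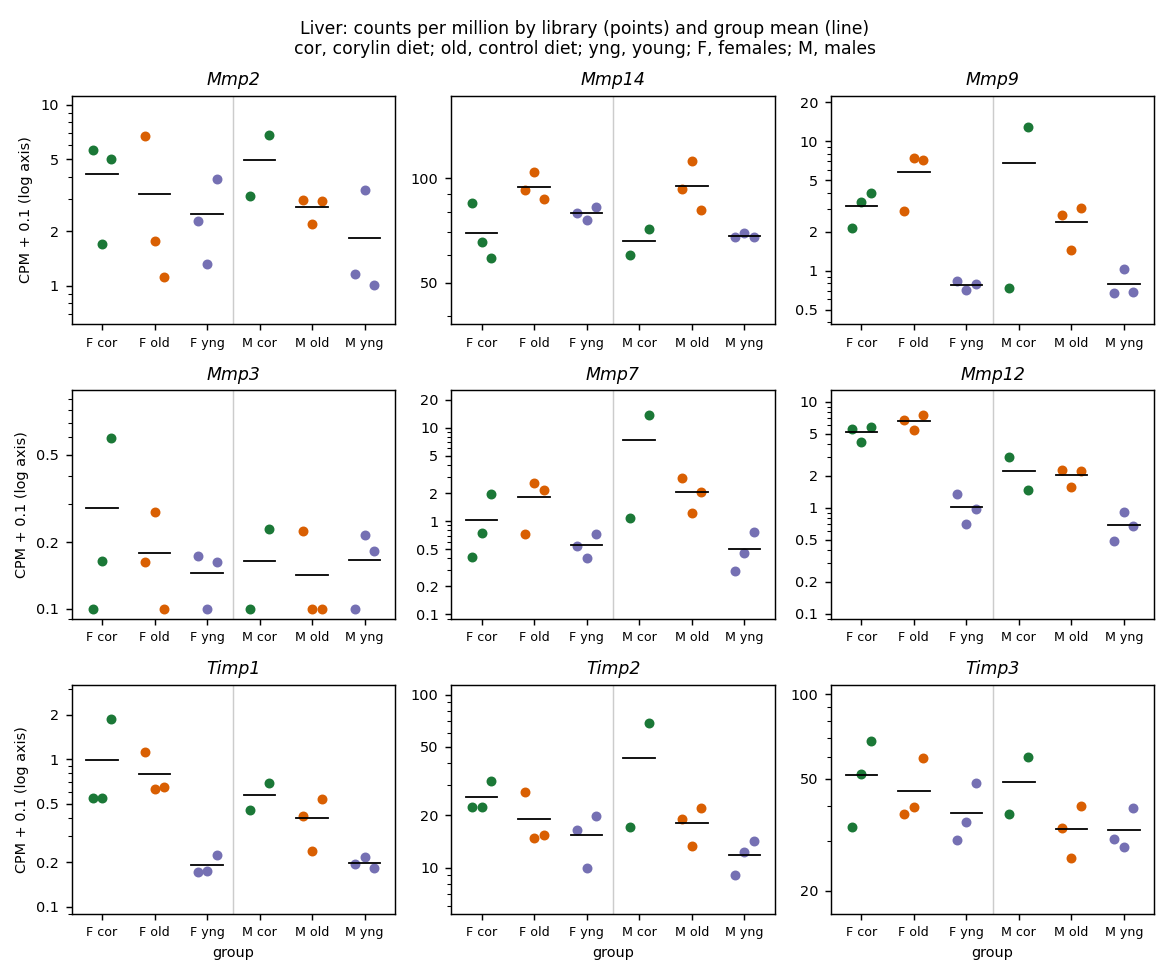
Liver CPM + 0.1 on a log axis for each of the 9 genes, by library (points) and group mean (lines), with corylin (cor), old and young (yng) females (F) and males (M) from left to right. Mmp12 separates aged from young females, Mmp14 is highest in old livers of both sexes, and 1 of the 2 corylin males is the highest library for Mmp2, Mmp7, Mmp9 and Timp2.

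In the same livers none of the 28 matrix proteins was called in livers of old relative to young females (3 at an unadjusted p under 0.05, 1 by DESeq2), with a median of 0.44, whereas among B libraries alone 4 were called higher and 1 lower. Among the other metalloproteinase genes 1 of 10 was called, Mmp27 (3.59 ± 0.93, adjusted p = 0.0317), and Mmp8, the collagenase of neutrophils, differed by 5.23 ± 1.54 (adjusted p = 0.0535). Among B libraries alone 8 of 12 inducers, 5 of 12 ADAM and ADAMTS proteases and 4 of 6 plasminogen system genes were called higher, and 1 of the last list lower, more than with all libraries. Over all genes, the alternative fits of this comparison, B libraries alone among them, called 793 to 3402 genes, against 1405. With all libraries, of 13 inducers Fosl2, an AP-1 subunit, rose by 2.27 ± 0.41 (adjusted p = 0.00859) and Il1b by 3.34 ± 0.65 (adjusted p = 0.0112). Of 12 ADAM and ADAMTS proteases, Adam8 and Adam10 rose, by 2.34 and 1.02. Of 7 plasminogen system genes, Plaur, the urokinase receptor, rose by 2.16 (adjusted p = 0.0469) and Serpine2 fell by 1.82 (adjusted p = 0.0311).

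Macrophage markers moved with these genes, with 9 of 12 called higher in old than in young females, and sums of 1163 to 1514 CPM in corylin females, 1121 to 1741 CPM in old females and 235 to 345 CPM in young females. Neutrophil markers rose for 8 of 9 genes, with sums of 24.2 to 30.9 CPM in corylin females, 38.6 to 249 CPM in old females and 4.35 to 8.55 CPM in young females. In males the macrophage sums were 822 to 1476 CPM in old and 188 to 259 CPM in young livers. Fibroblast markers rose for 2 of 8 genes in females, and hepatocyte markers fell for 2 of 5. The part of these cells in the levels was not tested.

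In quadriceps, 3 of the 7 tested genes were called higher in old than in young females and none lower, where 6.67% of all genes were called and 4.5% were called higher: Timp1, Mmp3 and Mmp14. The level of each was led by 1 library, old female 3. Timp1 had 0.2001, 0.0631 and 0.130 CPM in corylin females, 0.165, 1.25 and 59.0 CPM in old females, and 0, 0.162 and 0 CPM in young females. Of 1139 Timp1 counts in old females 1118 came from old female 3, against 3 counts over all young females, a ratio of 386 with a 95% counting interval of 132 to 1875. Timp1 was the one gene of the 7 with old females above young females without overlap, against 9.48% of all genes.

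Mmp3 had 0.800, 0.442 and 0.779 CPM in corylin females, 0.495, 2.23 and 53.0 CPM in old females, and 0, 0.863 and 0.764 CPM in young females. Old female 1 lay within the range of the other groups, and old female 3 far above all. Mmp9 was also led by old female 3, with 2.20, 1.14 and 1.299 CPM in corylin females, 1.92, 1.25 and 14.3 CPM in old females, and 0.298, 1.83 and 0.353 CPM in young females. The fitted age differences were 8.30 ± 1.80 for Timp1 (adjusted p = 0.0255), 5.07 ± 1.34 for Mmp3 (adjusted p = 0.0387) and 2.79 ± 0.84 for Mmp9 (adjusted p = 0.0578). Without old female 3 they were 3.43 ± 1.05 for Timp1 (adjusted p = 0.134), 1.28 ± 0.90 for Mmp3 (adjusted p = 0.521) and 0.93 for Mmp9, and none of the 7 genes was called. Among B libraries alone, where Timp1 missed the filter, none of the other 6 was called. None of the 7 was called without any 1 of the young females, whereas 4 and 5 genes were called without old female 1 and old female 2. Over all genes, the fits that left out 1 library called 18 to 2589 genes, against 945 with all libraries.

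Mmp14 had 11.7, 10.04 and 9.87 CPM in corylin females, 19.8, 12.7 and 26.2 CPM in old females, and 8.99, 14.8 and 9.53 CPM in young females. Old and young females overlapped, and all old females lay above all corylin females. The age difference was 0.82 ± 0.23 (adjusted p = 0.0446), and 0.56 ± 0.22 without old female 3 (adjusted p = 0.232). Mmp2 had 18.9, 19.4 and 16.4 CPM in corylin females, 34.0, 16.9 and 65.0 CPM in old females, and 15.9, 31.5 and 20.2 CPM in young females, and its age difference was 0.78 ± 0.36 (adjusted p = 0.177).

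Corylin females were not called different from old females for any of the 7 quadriceps genes, where edgeR called 0% of all genes, but 5 had an unadjusted p under 0.05. DESeq2 called 3 of the 7, and 462 of all genes. The fitted differences were -7.15 ± 1.63 for Timp1 (adjusted p = 0.119), -4.77 ± 1.31 for Mmp3 (adjusted p = 0.121), -1.91 ± 0.80 for Mmp9 (adjusted p = 0.235), -1.09 ± 0.36 for Mmp2 (adjusted p = 0.150) and -0.90 ± 0.23 for Mmp14 (adjusted p = 0.119). Leaving out old female 3 moved them to -2.28, -0.97, -0.04, -0.49 and -0.63, with none called, and leaving out old female 1 or old female 2 gave 3 and 4 called genes. Over all genes, the fits that left out 1 library called 0 to 1107 genes here, against 0 with all libraries. Mmp14 was the gene whose corylin and old groups were apart, against 7.96% of all genes lower without overlap.

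In quadriceps of males, 4 genes were lower in every old library than in every young library. Mmp2 had 20.6, 23.4 and 13.6 CPM in corylin males, 12.5, 10.8 and 10.7 CPM in old males, and 26.9, 31.9 and 27.1 CPM in young males. Timp2 had 72.1, 82.4 and 58.0 CPM in corylin males, 60.6, 41.1 and 62.8 CPM in old males, and 85.1, 107 and 110.6 CPM in young males. For both genes every old male lay below every young male, and for Mmp2 every corylin male lay between them.

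Timp3 had 172, 208 and 299.9 CPM in corylin males, 139, 147 and 113 CPM in old males, and 156, 192 and 209 CPM in young males. Mmp14 had 11.3, 12.8 and 10.6 CPM in corylin males, 9.54, 9.93 and 12.4 CPM in old males, and 18.4, 14.9 and 15.7 CPM in young males. Old males were below young males without overlap for these as well, so that 4 of 7 genes were lower without overlap, against 16.4% of all genes, and Timp1 alone was higher, against 15.4%.

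None of the 7 passed adjustment in old against young males, where edgeR called 0% of all genes, and 4 had an unadjusted p under 0.05. DESeq2 called 2 of the 7, and 503 of all genes. The differences were -1.34 ± 0.37 for Mmp2 (adjusted p = 0.101), -0.88 ± 0.25 for Timp2 (adjusted p = 0.114), -0.62 ± 0.23 for Mmp14 (adjusted p = 0.186) and -0.48 ± 0.19 for Timp3 (adjusted p = 0.204). In corylin against old males edgeR called 0% of all genes and none of the 7 (1 of 7 at an unadjusted p under 0.05). DESeq2 called 1 of the 7, and 78 of all genes. Timp3 differed by 0.77 ± 0.19 (adjusted p = 0.293) and Mmp2 by 0.77 ± 0.37 (adjusted p = 0.519), the 2 genes that were higher in corylin than in old males without overlap, against 9.12% of all genes.

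The age effect of females minus that of males was 1.44 ± 0.33 for Mmp14 (adjusted p = 0.0653) and 2.12 ± 0.51 for Mmp2 (adjusted p = 0.0724), with none of the 7 called, 4 below 0.05 before adjustment, 2 called by DESeq2, and 0.226% of all genes called. For the corylin effect of females minus that of males, none was called, with 0% of all genes called, 5 of the 7 at an unadjusted p under 0.05 and 2 by DESeq2. Averages over the sexes called none of the 7 for age (3.59% of all genes, 4 at an unadjusted p under 0.05, 2 by DESeq2) or for corylin (0% of all genes, 4 at an unadjusted p under 0.05, none by DESeq2). In the same order, DESeq2 called 733, 610, 1374 and 3 of all genes, whereas the shares given are those of edgeR.

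**Figure D4:**
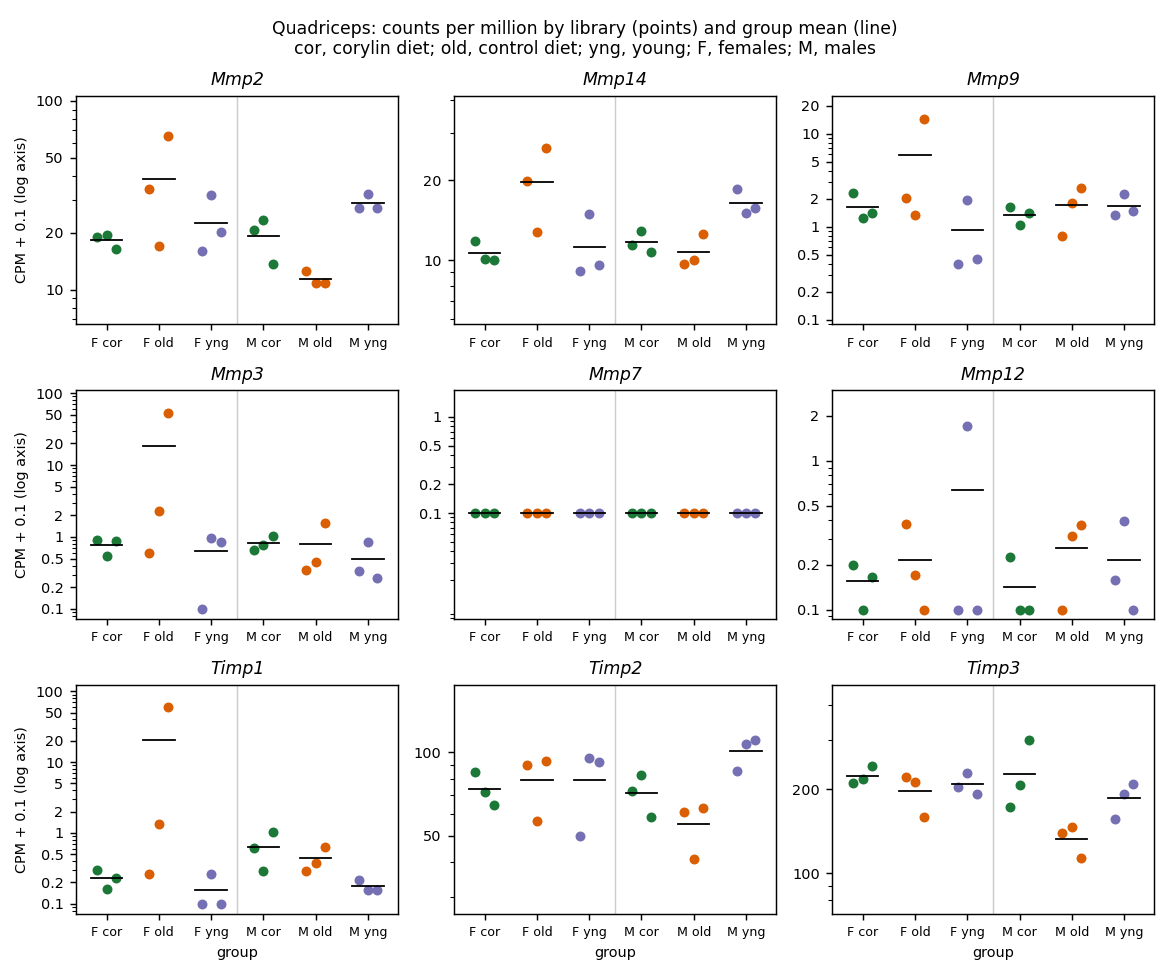
Quadriceps CPM + 0.1 on a log axis for each of the 9 genes, by library (points) and group mean (lines), with corylin (cor), old and young (yng) females (F) and males (M) from left to right. Old female 3 is the highest point for Timp1 (59.0 CPM), Mmp3 (53.0 CPM) and Mmp9 (14.3 CPM), and old males lie below young males for Mmp2, Mmp14, Timp2 and Timp3.

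Gene lists in the quadriceps of old relative to young females depended on the same library. Of 28 matrix proteins 4 rose (Loxl1, Col14a1, Lamc1 and Spp1), and so did 4 of 13 inducers, 4 of 15 ADAM and ADAMTS proteases, Mmp19 among 8 other metalloproteinase genes and 10 of 11 macrophage markers. Without old female 3 each of these counts was 0, apart from 1 inducer. Old female 3 also had the highest fibroblast sum of the old females, 880 CPM, against 344 and 453 CPM in the other 2, and the lowest muscle fibre sum, 83338 CPM, against 116426 and 125307 CPM. Quadriceps Mmp12, which was not tested, had its highest count of 30 in young female 2, a library with summed adipocyte markers of 1266 CPM, against 154 and 90.7 CPM in the other young females. In males, 17 of 28 matrix proteins had an unadjusted p under 0.05 in old against young quadriceps, with a median of -0.84. Of these 28, 0 were called by edgeR and 5 by DESeq2, which called 503 of all genes. The fibroblast sums were 265 to 320 CPM in old males and 418 to 563 CPM in young males, without overlap, and their part in these values was not tested.

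Between young females and young males no member was called in any tissue by edgeR or DESeq2, where 1.28% of all genes were called in liver, 6.25% in kidney and 1.2% in quadriceps. Of all members, quadriceps Mmp14 alone had an unadjusted p under 0.05, at 11.1 ± 3.19 CPM in young females and 16.3 ± 1.81 CPM in young males (n = 3 each, -0.56 ± 0.23, adjusted p = 0.219), and it was lower in females without overlap, against 13.9% of all genes. Liver Mmp14, at 79.4 ± 3.33 CPM in young females and 68.2 ± 1.09 CPM in young males (n = 3 each), was higher in females without overlap, against 10% of all genes (0.22 ± 0.15, adjusted p = 0.755). In kidney, Mmp7 was higher in young females without overlap, against 13.5% of all genes, with 12 counts in young females and 3 counts in young males, a ratio of 4.67 with a 95% counting interval of 1.26 to 25.8. Kidney Timp3 was lower in young females without overlap, against 13.6% of all genes, at 1588, 1844 and 1681 CPM in young females and 1891, 2068 and 2258 CPM in young males (-0.28 ± 0.14, adjusted p = 0.278).

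The genes whose pattern over the libraries was most like that of a member differed by tissue. Likeness was the mean absolute difference of z-scored log2 CPM over all libraries of the tissue, 0 for identical patterns, and libraries share group and composition, so these values describe and are not tested. In kidney (18 libraries) the nearest gene to Mmp2 was Mmp14 (0.279), followed by Ctsk, the cathepsin that cuts collagen (0.290), and Sparc (0.315). For Mmp14 they were Tifa (0.248), Mmp2 and Cmtm3 (0.285), and for Mmp12 Cks1b (0.431), Itgax and Bcl3. In quadriceps (18 libraries) the nearest to Mmp2 were 3 collagen chains, Col1a2 (0.279), Col6a2 (0.295) and Col6a1 (0.314). In liver (17 libraries), Mmp2 was nearest to Col1a1 (0.353) and Timp2 to Col4a2 (0.230) and Col14a1, whereas Mmp9 was nearest to Tfec (0.186) and Fcgr3 (0.197), which are expressed in myeloid cells. Liver Mmp14 was nearest to the fibrinogen chains Fgg (0.406), Fgb (0.406) and Fga (0.428), hepatocyte products of the acute phase. The genes closest to Timp3 were Enpep in kidney (0.394), Sesn1 in liver (0.291) and Ephx1 in quadriceps (0.417).

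**Figure D5:**
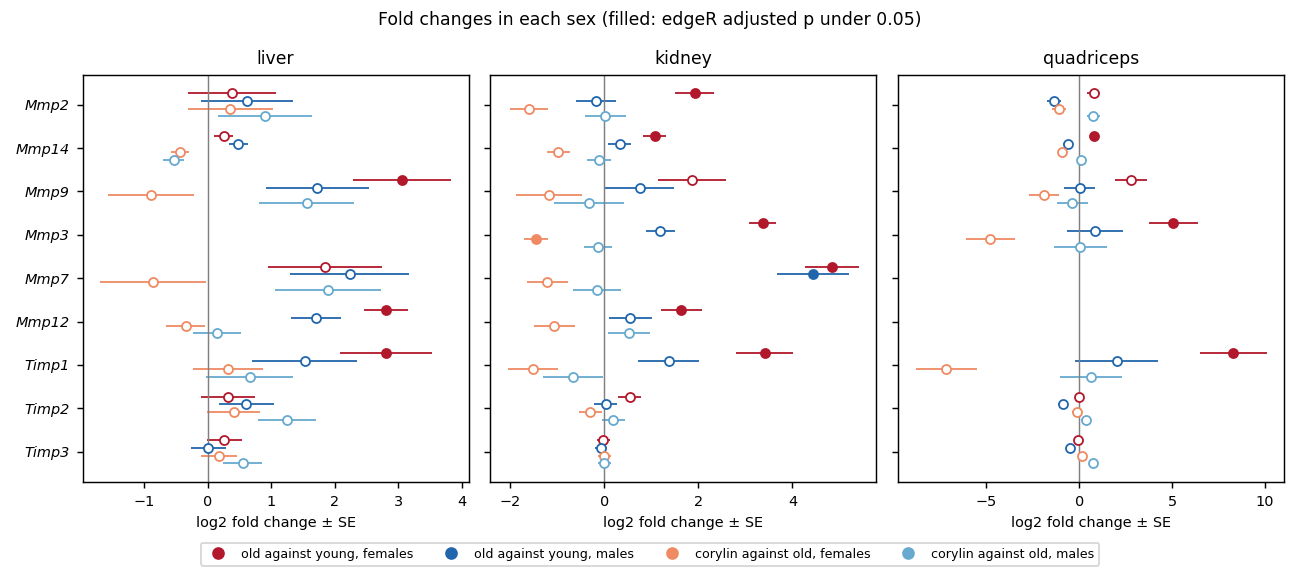
Log2 fold change ± SE of each tested member by tissue, for old against young and corylin against old in each sex (colours); filled points have an edgeR adjusted p under 0.05. The filled points are the 6 genes of old kidney females, 3 each in liver and quadriceps of old females, Mmp7 in old male kidney and Mmp3 in corylin female kidney.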

How the data were processed

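Poly(A) RNA of 3 tissues was sequenced from stranded libraries with 150 bp paired reads, per the labels' protocols. The submitters' processing notes name fastp 0.20.0, FastQC 0.11.9, HISAT2 2.1.0, featureCounts 2.0.1 and the build GRCm38 (mm10); the strand setting and annotation release were not given in the sources used here. Each tissue has 1 deposited table with raw counts of every gene by library, TPM values computed by the authors, and the authors' log2 fold changes with p-values. The deposited counts carry no normalization and entered every test. The authors' TPM values were used only for levels, and the deposited log2 fold changes and p-values only for a count of their calls. Of 54 samples, 53 libraries were analysed, and replicate 1 of the corylin male livers was not analysed here. Columns were matched by name, and 0 were left without a sample.

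Genes were filtered with filterByExpr (minimum count 10, minimum total 15), which left 15158 in liver, 17174 in kidney and 14173 in quadriceps, and tested with edgeR 4.0.16 (R 4.3.3, quasi-likelihood F test, robust, TMM) in 1 fit per tissue over 6 groups, which share 1 estimate of the spread. P-values were adjusted over all genes by the Benjamini-Hochberg method with a threshold of 0.05. SEs come from the F statistic, and log2 CPM use a prior count of 2. Groups called apart or without overlap have no common range of log2 CPM. Counting intervals at 95% are exact and cover counting error only, for genes with at most 3 counts in a group. Library names recur over the tissues, but no label states that the samples of a group are separate animals, so p-values cover only their spread, which may be technical. The fits were tested on simulated data with known changes.

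Alternatives were DESeq2 1.42.0, its size factors, no filter, only the groups compared, a replicate block, the library letter as a term and leaving out each library; a fit on B libraries alone was added after the data were seen. Same-numbered libraries of young females and young males deviated together (correlation over 0.1 in all 3 pairs) in liver and quadriceps. The correlations were 0.119 to 0.191 and 0.199 to 0.346, and the block there called no member, as without it. No other comparison of 3 pairs had this. Corylin against old male livers, with 2 pairs, had correlations of 0.312 and 0.482.

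The members, 5 other gene lists and 14 marker lists were chosen with earlier results of these data known. All 9 members are described in every tissue, and of other lists up to 4 genes with the smallest adjusted p, and the 3 genes most similar to a member with average log2 CPM of at least 1, some of them left out of the text for length. For the plasminogen system genes in kidney, 1 result is not reported here.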

Additional observations from a re-analysis of the deposited data

How the results depend on the processing

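Log2 fold changes of single members with an unadjusted p under 0.05, or called in any fit, numbered 90. Of their 1325 refits 1164 kept direction and side of the threshold, 77 came to pass it, 75 no longer passed and 9 changed sign. The other 126 were called in no fit, and 139 of their 1785 refits changed sign. The causes were not tested. In corylin against old livers of males, leaving out 1 library moved Timp2 over -0.0842 to 1.84, Mmp9 over -1.84 to 2.40 and Mmp7 over -0.996 to 2.70, the low end in each case without corylin male 3, and with B libraries only Mmp9 was -1.64 and Mmp7 -0.997. For the corylin effect of females minus that of males in liver, Mmp9 moved over -3.31 to 0.94 and Mmp7 over -3.70 to 0.13, the high end without corylin male 3, and Mmp9 was 0.74 with B libraries only. In quadriceps, Mmp9 in corylin against old females was 0.0556 with B libraries only.

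The number of members called moved as follows. In liver, old against young males gave 2 with DESeq2, 4 with only the groups compared and 2 with B libraries only, against 0. Corylin against old, averaged over the sexes, gave 1, Mmp14, with DESeq2, with its size factors in edgeR, with the library letter as a term and with B libraries only, against 0. In kidney, old against young males gave 0 with B libraries only, against 1. The age effect of females minus that of males gave 2 with DESeq2, and corylin against old females gave 3 with DESeq2 and 0 with only the groups compared or with B libraries only, against 1. In quadriceps, old against young females gave 1 with no filter, 0 with only the groups compared and 0 with B libraries only, against 3. Old against young males gave 2 with DESeq2 and 3 with only the groups compared, the average over the sexes 2 with DESeq2, and the sex difference 1 with no filter and 2 with DESeq2. The corylin comparison of quadriceps gave 3 with DESeq2 in females, 1 in males and 2 for the sex difference, each against 0. Over all genes DESeq2 also called more in these quadriceps comparisons: 462, 78 and 610, against 0 by edgeR. For corylin against old female kidneys it called 226, against 10, and for old against young male livers 948, against 32.

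With the replicate number as a block, members called were 2 for the age effect of females minus that of males in kidney, against 0 without the block, 3 for corylin against old females in kidney, against 1, and 1 for old against young females in quadriceps, against 3. Over all genes, the alternative fits, the block among them, called 16 to 345, 0 to 226 and 1 to 1597 genes in these comparisons. The main fits called 16, 10 and 945 of all genes in the same order. The block left every other count of members within 1.5 times of the count without it. No source says that the numbers pair samples there. Timp1 missed the filter with only the groups compared in liver and quadriceps and with B libraries only in quadriceps. With only the groups compared, Mmp7 also missed it for old against young female livers and Mmp3 for old against young male quadriceps. Between young females and young males, so did Mmp7 and Mmp9 in liver and Mmp3 and Mmp7 in kidney. Those counts leave these genes out.

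Leaving out 1 library gave 1 to 3 called members for old against young females in liver and 3 to 5 averaged over the sexes. Over all genes those refits called 256 to 1531 genes, against 1405, and 1700 to 2861 genes, against 2900. Liver comparisons with corylin males are left out of these counts, because refits without corylin male 2 or 3 leave 1 library in that group. In kidney, leaving out 1 library gave 4 to 7 for old against young females, 0 to 1 for males and 3 to 6 averaged. There it gave 0 to 1 for the sex difference and 0 to 1 for corylin against old females. In quadriceps it gave 0 to 5 for old against young females, 0 to 2 averaged, 0 to 2 for the sex difference, 0 to 4 for corylin against old females and 0 to 3 for its sex difference. Over all genes, the same refits of old against young female kidneys called 1034 to 2260 genes, against 1863. Those of corylin against old female kidneys called 2 to 117 genes, against 10. Those of old against young female quadriceps called 18 to 2589 genes, against 945. Those of corylin against old female quadriceps called 0 to 1107 genes, against 0.

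In the authors' deposited table, members with an adjusted p under 0.05 numbered 6 in kidney, 3 in liver and 4 in quadriceps for old against young females, and 1, 2 and 2 for old against young males. For corylin against old they numbered 3 in kidney, 0 in liver and 3 in quadriceps of females, and 1 in males, in quadriceps. How many of all genes passed in the authors' table was not counted. These numbers therefore stand without a share of all genes and do not set the members apart. Depth limits liver Timp1 and Mmp3, young kidney Mmp7 and quadriceps Timp1 and Mmp7, which held 12 counts or fewer in a young group, and quadriceps Mmp12. Groups of 3 limit every call.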

Other observations

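In kidneys of old relative to young females, 1 of 5 tested adipocyte genes was called with all libraries. Without old female 3 it was 5 of 6, and without old female 2 it was 0 of 4. Old female 2 had summed adipocyte markers of 507 CPM, against 44.8 and 61.6 CPM in the other old females, and was the lowest old female for Mmp14 and Mmp2, at 34.3 and 8.44 CPM. Whether these go together was not tested.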
